A study of Triticum aestivum with 8 samples.

Results

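In germinating embryos of bread wheat, 125 array probes rose steeply between dry seed and 16 h of imbibition and then stayed within 2-fold of that level to 24 h. They are 0.287% of the 43603 non-control probes of the array and 0.524% of the 23842 probes well above background on all 8 arrays. The members were chosen on the values themselves. Each had to be flagged well above background by the scanner software on every array. Its mean at 16 h had to exceed its dry-seed mean by at least 4.5 on the log2 scale, which is 22.6-fold, and its 24 h mean had to lie less than 1 from the 16 h mean. Levels throughout are log2 signals minus the 75th percentile of the array, so they give the place of a probe's signal among those on the same array. Signals of different probes also depend on the probe, so ranks between members are ranks of signal and not of transcript amount. Both differences between groups are therefore descriptions and carry no test.

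The samples were embryos of the cultivar Norin61, taken from dry seed (0 h, 2 arrays), from seed imbibed in darkness at 25 °C for 16 h (3 arrays) and from seed so imbibed for 24 h (3 arrays). Per the labels, seeds were soaked in dilute hypochlorous acid and rinsed before imbibition. Each stage gave 21 seeds, divided in 3, and of dry seed only 2 such pools were analysed here. Only imbibed seeds with a radicle, the embryonic root, of at least 3 mm at 16 h or 7 mm at 24 h were kept, so the imbibed groups hold selected, germinated seeds. Each array carried 200 ng of total RNA from a pool of 7 whole embryos, labelled with the dye Cy3, and nothing in the labels sets the pools of a stage apart in growth. In such pools, more transcript per cell and more cells that hold it cannot be told apart.

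A mature wheat embryo is dry and metabolically quiet, and it carries messenger RNA stored during seed maturation. Water uptake restarts respiration, translation and transcription, and newly made transcripts come to replace much of the stored set. The radicle emerges mainly through cell elongation, after which cell division and seedling growth take over.

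The files pair no probe with a gene symbol, a description or a sequence. Of 39288 sequence names in the files, 0 matched the RefSeq gene table of the Chinese Spring wheat assembly. The members are therefore given by probe and by sequence name, with no statement of function, and markers of the embryo or of other grain tissues could not be checked. The 125 probes carry 116 sequence names, and 2 of them are named only by their own probe ID.

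As a set, the members moved from the dim part of the dry-seed arrays to the bright part of the imbibed arrays. The 2 dry-seed arrays had member medians of -2.57 and -2.89. The 16 h arrays had medians between 2.50 and 2.56, and the 24 h arrays had 2.22, 2.26 and 2.25. No imbibed array came near the dry-seed arrays, which the rule all but fixes. The same holds for the direction of the shifts from dry seed in percentile and share of signal that follow. With this scaling the 24 h medians all lay slightly below the 16 h medians. In dry seed the median member stood at the 18.2 percentile of the probes detected on all arrays, at 16 h at the 86.5 percentile and at 24 h at the 82.9 percentile. At 16 h, 46 of the 125 were brighter than 90% of those probes and 18 were brighter than 95%. Together the members held 0.0208% ± 0.00016 (SD, n = 2) of the wheat signal before imbibition. Their share was 1.12% ± 0.05 (SD, n = 3) on the 16 h arrays and 0.942% ± 0.012 (SD, n = 3) on the 24 h arrays.

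**Figure D1:**
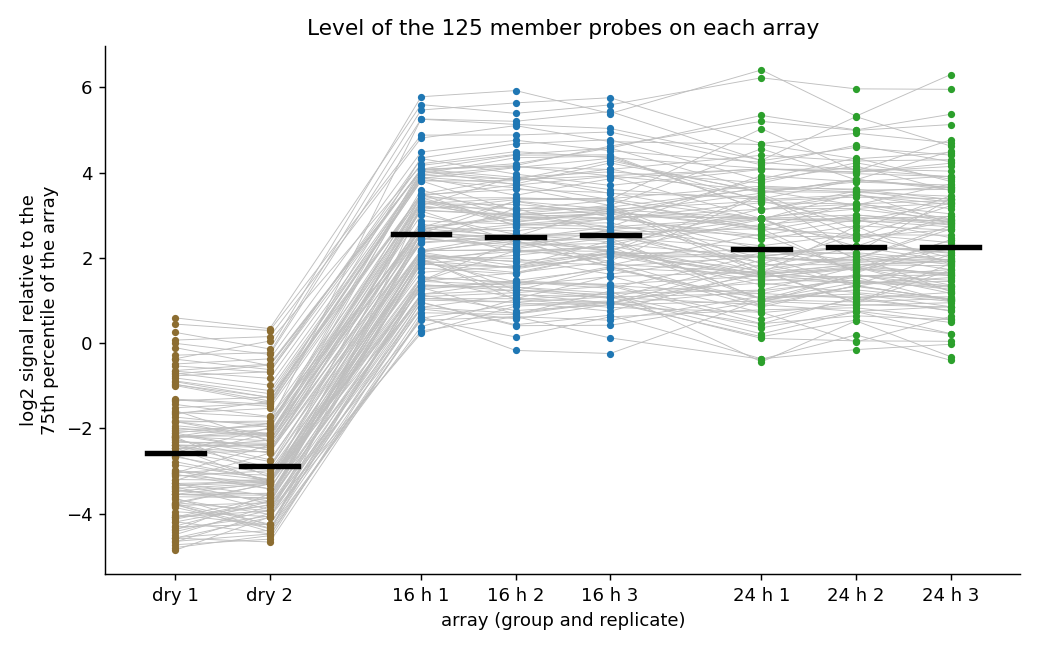
Level of each of the 125 members (points, joined by grey lines) on the 8 arrays, as log2 signal relative to the 75th percentile of the array. Black bars are array medians, which lie at -2.57 and -2.89 in dry seed and between 2.22 and 2.56 on the imbibed arrays.

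The rise to 16 h ranged from 4.51 to 7.64 over the members, with a median of 5.01, or 32.3-fold. It was at least 5 for 64 members and at least 6 for 13. Over all probes detected on every array the median difference was -0.19, and 90% of them lay between -2.90 and 2.58. Every 16 h array lay above both dry-seed arrays in all 125 members, by 4.11 to 7.44 between the nearest arrays, against 38.2% of the probes detected on all arrays. In a limma fit of the whole table all 125 were called higher at 16 h, against 25.7% of tested probes, and higher at 24 h than in dry seed, against 29.3%. The choice of members fixes these counts, and it leaves no member to be called between 16 and 24 h, where 11.7% of tested probes were called higher and 6.77% lower.

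The member with the largest rise in processed signal was A_99_P512602 (sequence name TC437216). Dry seed gave -4.65 and -4.48, the 16 h arrays 3.23, 2.96 and 3.04, and the 24 h arrays 2.20, 1.93 and 2.20. The rise was 199-fold (log2 difference 7.64), and all 24 h arrays lay below all 16 h arrays. Its dry-seed signals were 1.36 and 1.23 times the lowest signal well above background, and with the normexp background correction described further on the rise was 36.9-fold, no longer the largest.

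A_99_P004906 (BT009444) combined a steep rise with a high level. Dry embryos read -2.19 and -1.87, those at 16 h read 5.26, 5.21 and 5.44, and those at 24 h read 4.28, 4.59 and 4.41. The rise was 161-fold, or 91.6-fold with normexp, where it was the largest of all members. It was the only probe among both the 10 steepest and the 5 brightest members at 16 h.

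A_99_P342631 (TA94419_4565) rose 138-fold, or 33.6-fold with normexp, and then held its level. From -4.29 and -3.71 before imbibition it went to 3.35, 3.03 and 2.93 at 16 h, with 3.15, 3.26 and 3.04 following at 24 h. Its 16 h and 24 h arrays overlapped, and the means differed by 0.05.

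The other 7 of the 10 steepest members rose between 70.6-fold and 95.4-fold. In order they were A_99_P528492 (AK332545), A_99_P461432 (TC411449), A_99_P555272 (CA728072), A_99_P266811 (TA71949_4565), A_99_P242426 (AK332558), A_99_P294976 (TA80216_4565) and A_99_P528777 (CA703311). With normexp these 7 rises were 14.2-fold to 53.5-fold, and A_99_P555272, A_99_P266811 and A_99_P294976 then had rises under 4.5. Of the 10 steepest members, 4 remained among the 10 steepest with normexp, where A_99_P448817 and A_99_P174989, both outside the 10 by processed signal, also stood. Their spread between arrays of a stage was small against these rises: over all members the median SD was 0.18 before imbibition, 0.20 for the 16 h arrays and 0.16 for the 24 h arrays, and the largest was 0.76.

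The brightest members at 16 h differed in where they stood before and after. A_99_P174989 (AB262584) read 0.25 and -0.13 on the dry-seed arrays, 5.78, 5.93 and 5.39 after 16 h, and 6.41, 5.33 and 6.30 after 24 h. Replicate 2 at 24 h lay below all the 16 h arrays for this probe while the other 24 h arrays lay above them. A_99_P448817 (TC402824) went from -0.28 and -0.22 to 5.47, 5.64 and 5.76 after 16 h. It was lower on every 24 h array, with values between 4.68 and 4.93.

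A_99_P195443 (AB334130) had the highest dry-seed mean of all members, at 0.59 and 0.34, and the highest 24 h mean, at 6.23, 5.97 and 5.96, after a 16 h level of 5.39 to 5.60. A_99_P284181 (TA77115_4565) completed the 5 brightest, with 5.25, 5.13 and 5.04 at 16 h and 4.29, 5.31 and 4.63 at 24 h. Only 4 members had a dry-seed mean above 0, the 75th percentile of the array, whereas all 125 had a 16 h mean above it. The rule nearly fixes the second count. Signals well above background began at -5.09 and -4.78 on the dry-seed arrays, so a rise of at least 4.5 ends near or above 0.

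At 24 h most members lay below their 16 h level, within the allowed 2-fold. The later step ran from -0.97 to 0.96 with a median of -0.29, and it was negative for 77 members and positive for 48. That is 61.6% lower at 24 h, against 55.0% of the 20512 detected probes whose later step was also within 1. The step stayed within 0.5 for 69 members and within 0.25 for 27. It was below -0.5 for 39 and above 0.5 for 17.

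The members were thus flat by the rule and not all level by their arrays. For 49 of 125, every 24 h array lay below every 16 h array, against 35.4% of the probes detected on all arrays. For 22 every 24 h array lay above every 16 h array, against 29.1% of those probes, and for the other 54 the arrays overlapped. These values come from the contrast that the rule used, and no test was made of them. The shares of 35.4% and 29.1% also include probes whose later step was larger than the rule allows. These shares are not matched to the members, so they cannot show whether the members were more often lower or higher at 24 h than comparable probes.

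Members at both ends of the range differed in how far their arrays were apart. A_99_P497187 (TA52984_4565) had the highest later step. It read 4.06, 4.21 and 4.58 at 16 h and 5.34 and 5.37 on 24 h replicates 1 and 3, with replicate 2 between these and the 16 h arrays. A_99_P304546 (TA83019_4565) was higher at 24 h, going from 0.63, -0.17 and -0.24 to 1.02, 0.97 and 1.05, with no overlap. A_99_P235296 (TA63138_4565) went from 3.32, 2.78 and 2.73 to 3.93, 3.79 and 3.92, also with no overlap.

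Replicate 2 at 24 h stood apart in the remaining 2 of the 5 members with the highest later step. A_99_P311041 (TA84957_4565) read 2.17, 2.20 and 1.93 at 16 h and 3.47, 2.12 and 3.39 at 24 h, so its arrays overlapped, and its SD of 0.76 at 24 h was the largest of any member and stage. A_99_P393052 (TA108744_4565) went from 4.04, 3.72 and 3.37 to 5.03, 4.04 and 4.77, where the lowest 24 h array and the highest 16 h array were level.

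At the lower end, A_99_P528492 (AK332545), one of the 10 steepest, went from 4.08, 4.41 and 4.42 to 3.12, 3.57 and 3.31, with no overlap. A_99_P148462 (CJ707859) went from 0.71, 0.67 and 1.22 to -0.44, 0.52 and -0.32, with 24 h replicate 2 again nearest to the 16 h arrays. A_99_P081500 (CV065516) went from 2.69, 2.51 and 2.53 to 1.89, 1.34 and 1.67.

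**Figure D2:**
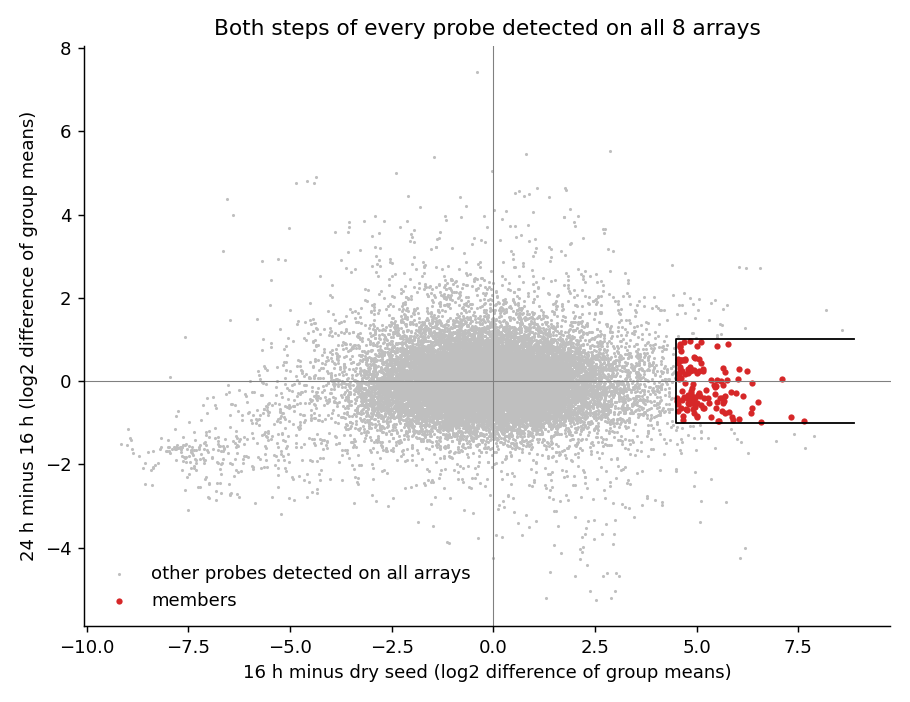
Difference of group means between 16 h and dry seed (horizontal, log2) and between 24 h and 16 h (vertical, log2) for the 23842 probes detected on all 8 arrays. Members (red) fill the box set by the rule, and 65 other probes with a rise of at least 4.5 lie above or below it.

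Most steep risers stayed near their 16 h level, though a smaller share of them than of all detected probes. Of 190 detected probes with a rise of at least 4.5, 125 (65.8%) had a later step within 1, 30 were higher by 1 or more at 24 h and 35 were lower by 1 or more. Among all detected probes 86.0% had a later step within 1. The shares were not tested against each other, since they rest on the values that chose the members. The members nearest the limits were not set apart from their neighbours: the smallest rises inside were 4.51, 4.51 and 4.53 (A_99_P200366, A_99_P173774 and A_99_P315361), and the largest outside were 4.48, 4.48 and 4.47. Later steps of 0.96, 0.94 and 0.93 lay inside, and 1.04, 1.05 and 1.09 outside. At the lower limit, -0.97, -0.97 and -0.95 lay inside and -1.06, -1.08 and -1.09 outside.

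A further 280 probes had the same rise and the same flat step by their signals but were not well above background on 1 or both dry-seed arrays. All 280 were well above background on all 6 imbibed arrays, and 37 of them missed the flag on a single array. Their rise was not taken as measured, as at least 1 dry-seed array lacked signal well above background, and they are no members. The requirement of dry-seed signal thus left out 280 probes and kept 125, and whether the 280 share the course of the members is not known.

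Relative to the spike-in controls, control RNAs added to the sample, the rise was larger and the median later step was above 0. Scaled to 8 such control probes, the rise had a median of 7.90 and ranged from 7.39 to 10.52, and the later step had a median of 0.32, above 0 for 97 of the 125 members. This scaling moved every 16 h minus dry seed difference by 2.88 and every 24 h minus 16 h difference by 0.61. The median over all detected probes was then 2.69 for the rise and 0.54 for the later step. The members were thus flat after 16 h in their place among the signals of an array. Measured against the added RNA, 21 of them were at least 2-fold higher at 24 h than at 16 h. The shift of 0.61 was common to all probes, and the members' median of 0.32 lay below the 0.54 of all detected probes. The counts of 97 and 21 are thus no trait of the members.

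Several members are probes of the same sequence name, which the files place on the same named sequence. Without probe sequences it could not be checked that they read the same transcript. Of the 116 names, 5 held 2 or more member probes, 12 probes in all. The name AK332558 had 4 probes on the array, and all 4 were members. Their dry-seed means were spread from -3.61 to -0.16 and their rises from 4.55 to 6.34, yet their later steps were -0.77, -0.72, -0.77 and -0.70. The name AK332545 had rises of 5.01 and 6.58 with later steps of -0.85 and -0.97.

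Both probes of CJ832645 rose, by 5.74 and 5.51, and stayed level, with later steps of 0.04 and 0.04. Both probes of DQ872388 rose, by 5.54 and 5.02, with later steps of -0.95 and -0.85. Both probes of CJ776273 shared an uneven 16 h stage. A_99_P477997 read 2.09, 1.25 and 1.05 at 16 h and 1.95, 1.97 and 1.97 at 24 h, and A_99_P037444 read 1.96, 1.15 and 0.94 and then 1.84, 1.84 and 1.91. In both, 16 h replicate 1 was already at the 24 h level and the other 16 h replicates were not.

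A further 16 names with 1 member each had other probes on the array, 23 in all, that were no members. Of these, 17 probes of 10 names were well above background on all arrays, and each of the 17 was also higher at 16 h than in dry seed. Their rises were 2.49 to 4.32 with a median of 2.90, or 7.48-fold, and 17 of 17 had a rise of at least 1, against 21.3% of detected probes. They share their RNA and their name with a member, so this is no independent support for the member. The 6 other probes were not well above background on either dry-seed array, so their rise was not measured. Of these, 5 were well above background on all imbibed arrays. The sixth, A_99_P206416 of TA52984_4565, was dim throughout, with a dry-seed mean of -4.89 and imbibed means of -6.66 (16 h) and -5.89 (24 h), whereas its member A_99_P497187 rose by 4.85.

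The probes of a name differed more in the size of the rise than in the later step. The member's rise exceeded that of the other probe by 0.18 to 2.32, with a median of 1.92. A smaller rise in the other probes is partly built in, since a rise of 4.5 would have made them members. Of the 17 other probes, 16 were brighter in dry seed than the member. Their later step differed from the member's by 0.02 to 0.30 with a median of 0.11, and it had the same sign in 16 of 17. Within the 15 names that hold a member and 2 or more probes detected on all arrays, the range of the later step had a median of 0.10 and reached 0.58, for U76744. Over all 1811 names with 2 or more such probes its median was also 0.10, so closeness in the later step is no trait of the members.

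For 3 names the other probes were already bright in dry seed. For Y18626 the member A_99_P236316 rose by 5.14 from a dry-seed mean of -1.40. The other probes A_99_P236351, A_99_P406827 and A_99_P407432 rose by 2.85, 2.82 and 2.90 from dry-seed means of 3.99 or more. For DQ435667 the member A_99_P406742 rose by 4.92 from -0.96, and the other probes rose by 2.86, 2.78 and 2.90 from 3.54, 4.77 and 3.27.

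The third such name, TA58243_4565, had a member that rose by 4.63 from -1.84 and another probe that rose by 2.74 from 5.02. In all, 7 other probes of 3 names had a dry-seed mean above 3, and their rises lay between 2.74 and 2.90. For these names the fold of the member is thus not the fold that its brighter probes gave. Among the 1811 sequence names with 2 or more probes detected on all arrays, the range of the rise within a name had a median of 0.42 and was at least 1 for 27.6%. It was at least 1 for 9 of the 15 such names that hold a member, where the choice of steep probes favours a wide range.

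**Figure D3:**
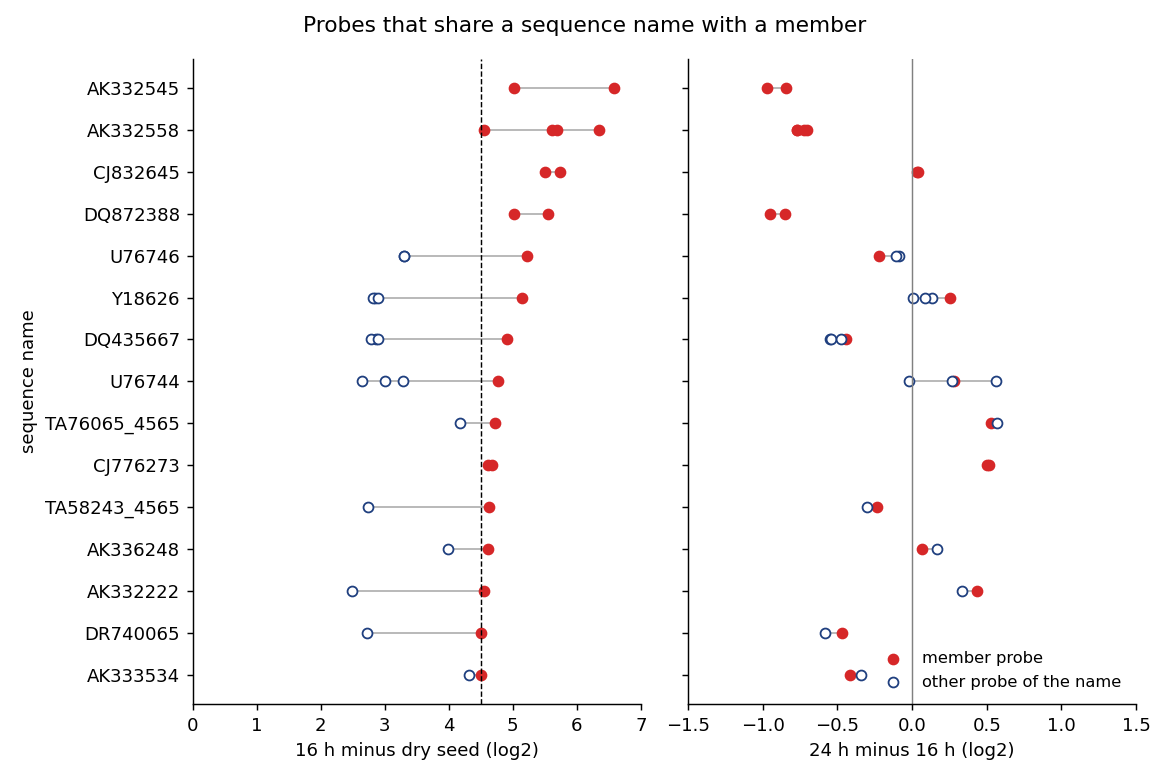
Rise to 16 h (left, log2) and later step to 24 h (right, log2) of the probes that share a sequence name, for the 15 names with a member (red) and 2 or more probes detected on all arrays. Other probes (open circles) lie left of the limit of 4.5 (dashed), as low as 2.49, and the later steps of a name span at most 0.58.

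For many members the size of the rise rests on dim dry-seed signals. The lower of the 2 dry-seed signals of a member was under 2 times the array's lowest signal well above background for 29 members, under 4 times for 64, and at least 10 times for 26. In linear units the dry-seed arrays reached down to 7.69 and 8.98. The steepest member, A_99_P512602, read 10.5 on dry-seed replicate 1, against 9653 to 14172 at 16 h. The error that the scanner software gives for a spot was 11.3% of the signal for the median member as a mean of the dry-seed arrays, and at most 21.9% on a single array.

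A different background correction, normexp with an offset of 50, gave smaller rises. The offset is added to every signal and exceeds the median dry-seed member signals of 44.2 and 33.2, so by construction the dimmest members lose most. For the 29 members under 2 times the lowest signal, the median rise went from 5.17 to 3.03. For the 26 members at 10 times or more, it went from 4.85 to 4.58. Over all 125 members the median became 4.02, with a lowest rise of 2.32. All 125 stayed at least 2-fold higher at 16 h, and 34 kept a rise of 4.5 or more.

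**Figure D4:**
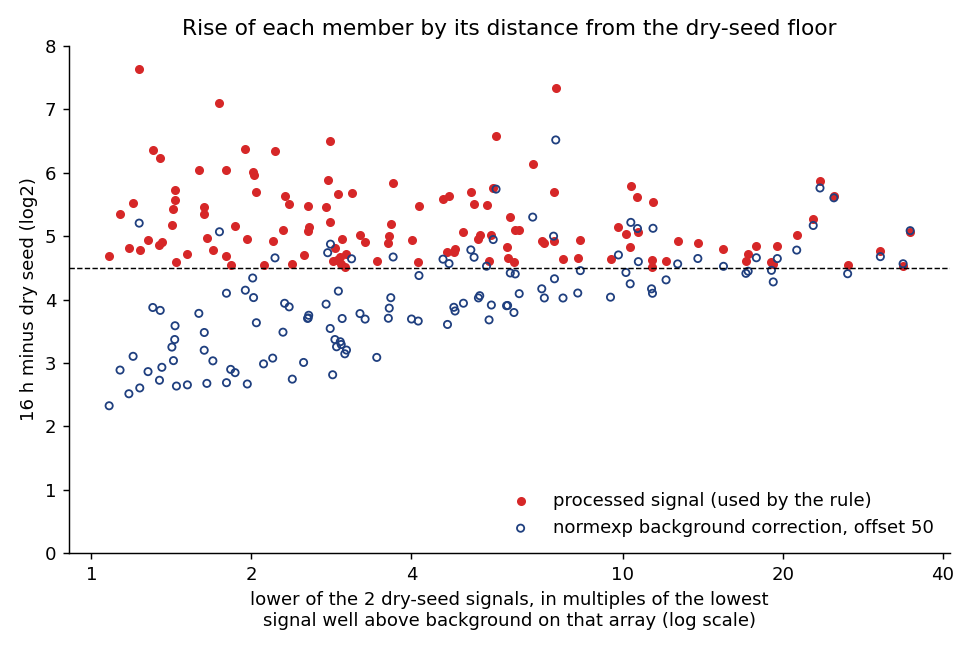
Rise of each member from dry seed to 16 h (log2) against the lower of its dry-seed signals, in multiples of the lowest signal well above background on that array (log scale). Filled points are the processed signals of the rule and open points the normexp values, which lie below the limit of 4.5 (dashed) for all but 34 members.

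The arrays lay on 2 slides, each with at least 1 array of every stage, so the course could be read on each slide without a shared array. Over the members the median rise was 4.96 on slide 1 and 5.12 on slide 2, and the median later step was -0.25 and -0.24. The rise was at least 4.5 on both slides for 100 of 125. The later step had the same sign on both slides for 113 of 125 (90.4%), being negative for 72 and positive for 41, against 85.5% of the detected probes with a later step within 1. Across the 125 members, Pearson's r between slides was 0.75 for the rise and 0.85 for the later step. These correlations describe probes that share arrays, and the values are those that chose the members.

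Probes chosen by the rule on the arrays of 1 slide mostly rose steeply on the other slide, whose arrays had no part in that choice. The rule applied to the slide 1 arrays gave 138 probes, of which 104 were among the members. Of these, 115 were well above background on every slide 2 array, and the other 23 are left out of the values that follow. On slide 2 the rise of the 115 was 3.51 to 7.52 with a median of 5.11, and 97 of them rose by at least 4.5 (84.3%), against 0.822% of the probes detected on all arrays. Their later step on slide 2 was within 1 for 102 (88.7%), close to the 82.3% of detected probes, and 86 met the whole rule there, against 0.495% of detected probes.

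In the other direction, the rule gave 120 probes on slide 2, of which 103 were among the members. On the slide 1 arrays 118 of them were well above background, with a rise of 3.45 to 7.74 and a median of 4.85, and 93 rose by at least 4.5 (78.8%), against 0.759% of detected probes. Their later step was within 1 for 109, which is 92.4% against 85.1%, and 86 met the whole rule, against 0.482%. Of all probes chosen, 86 of 138 (62.3%) and 86 of 120 (71.7%) met the whole rule on the other slide. Both slides are parts of the 8 arrays that chose the members, and most of the chosen probes were members. These shares are therefore descriptions and no independent support for the members. With 1 dry-seed array on each slide no test could be made within a slide.

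**Figure D5:**
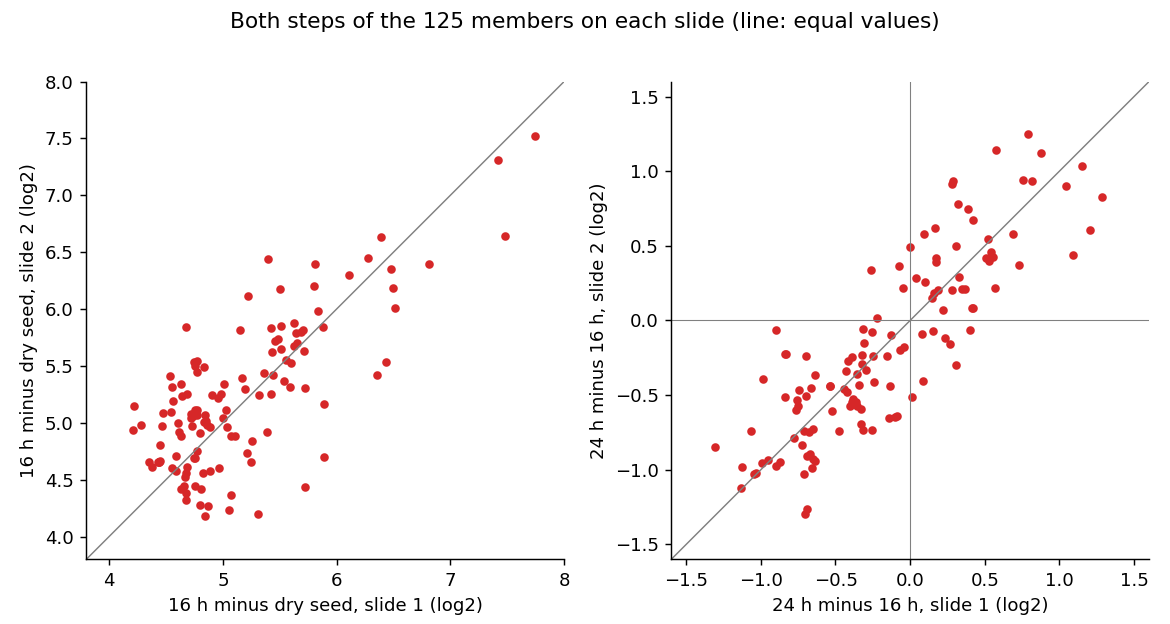
Rise to 16 h (left) and later step to 24 h (right) of the 125 members on slide 1 (horizontal) and slide 2 (vertical), in log2, with a line of equal values. Pearson's r over the members is 0.75 for the rise and 0.85 for the later step.

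Single arrays of a stage did not stand equally far from the other imbibed stage. Among the 24 h arrays, replicate 2 was nearest to the 16 h mean in 68 of 125 members (54.4%), and it was so in 51.7% of all detected probes. This replicate was the highest 24 h array in 64 members (51.2%), against 40.5% of detected probes. It was the lowest in 44 members, against 39.6% of detected probes. These differences were not tested. Among the 16 h arrays, replicate 1 was nearest to the 24 h mean in 72 members (57.6%), and in 63.2% of all detected probes. Both shares of the nearest array were near those of all detected probes. Without 24 h replicate 2 the median later step of the members was -0.24, and without 16 h replicate 1 it was -0.30.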

How the data were processed

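Embryo RNA was hybridised to 8 single-colour Agilent arrays. Per the file headers, Agilent Feature Extraction 10.7.3.1 made the deposited intensity values: a background-subtracted, detrended signal per spot, with median spot and local background intensities, not scaled between arrays. Flags for signal well above background come from the same files. The deposited log2 table of the series equals these values minus each array's 75th percentile, centred per probe. Its columns for 24 h replicates 2 and 3 each match the scanner file of the other, within the same group.

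Groups follow the sample titles; the descriptions of the imbibed samples name 8 and 16 h where the titles say 16 and 24 h. Spots of a probe were averaged on the log2 scale after subtraction of the array's 75th percentile over non-control probes. limma 3.58.1 in R 4.3.3 (a mean per group, all 8 arrays) was fitted to 30834 probes, those with signal well above background throughout at least 1 group; a call needed a Benjamini-Hochberg adjusted p below 0.05 and a 2-fold change. The fit serves only as background. It was also run on simulated data with independent noise, and no result here rests on that run. Alternatives were other scalings, normexp, spike-ins, other limits, single slides and leaving out each array. The members and lists were chosen with earlier results of these data known. Members were named by rule: the 10 steepest, the 5 brightest at 16 h, the 5 with the highest and the 5 with the lowest later step, those nearest a limit and those sharing a sequence name; probes of the same name that are no members were added after their values were seen. Lists of genes by function, prepared earlier, could not be applied without gene descriptions. Equal replicate numbers were not taken as pairs. The number of arrays limits the precision.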

Additional observations from a re-analysis of the deposited data

How the results depend on the processing

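The number of members depended most on the scaling, the background correction and the limits. It was 2019 with spike-in scaling, 32 with normexp background correction, 217 and 64 with a minimum rise of 4 and 5, and 69 with a maximum later step of 0.5. It was 405 when detection was asked of the imbibed arrays only and 61 when the dry-seed signal had to be at least 4 times the lowest signal well above background. Looser limits can only add probes and stricter ones only remove them, and spike-in scaling adds a constant to every rise. Leaving out each array gave 106 to 138 members. The median rise of the members was 7.90 with spike-in scaling and 4.02 with normexp, and 4.95 to 5.09 when single arrays were left out. The median later step turned from -0.29 to 0.32 with spike-in scaling. It was -0.24 with the 75th percentile of detected probes, -0.42 with median scaling and -0.24 on the slide 2 arrays, and -0.30 to -0.22 when single arrays were left out. For the 34 members named by the rule, the rise stayed above 0 in all 442 repeats with spike-ins, normexp, the deposited table, single slides or an array left out. Apart from normexp, the choice of members all but fixes this outcome, so it is no support for the rise.

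Over all tested probes, limma called 16070 at 16 h against dry seed, 5679 at 24 h against 16 h and 17347 at 24 h against dry seed. With spike-in scaling the counts were 27609, 9718 and 28765. Without a filter on dim probes they were 25543 and 26677 against dry seed. For 24 h against 16 h the count was 3511 with normexp, 3309 with only probes well above background on all arrays and 15997 without a fold minimum. Leaving out single arrays gave 15773 to 16122, 4945 to 6754 and 17109 to 17432. With the replicate number as a block the counts were 16195, 5647 and 17441. Deviations of equally numbered 16 h and 24 h arrays correlated at 0.12, 0.09 and -0.04, so the numbers were not taken as pairs. Except where a value or the construction of the setting shows it, the cause was not tested. Many rises were taken from dry-seed signals near background, with 64 members under 4 times the lowest signal well above background. The normexp offset of 50 lowers the dimmest most by construction.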
